A study of Mus musculus with 2 samples.

Results

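The Mmp12-selected macrophages low in C1q were 263 of the 23657 cells in 2 deposited single-cell libraries of mouse EMT6 mammary tumors, 157 of 16115 in the Olaparib + LLY-283 library and 106 of 7542 in the Combo library. They were selected on their own measured UMIs (unique molecular identifiers, each a counted RNA molecule). A member had 200 or more genes, under 20% mitochondrial UMIs, at least 2 UMIs and at least 0.2% of its UMIs from a selection sum that includes Mmp12, at least 0.2% from the myeloid genes Lyz2, Tyrobp, Fcer1g and Cd68, under 0.2% from C1qa, C1qb and C1qc, under 1% from the neutrophil genes S100a8 and S100a9, and at most 2 UMIs of the keratins Krt8 and Krt18. Differences in the selection genes follow from the selection and are given below only as a description.

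Mmp12, macrophage metalloelastase, degrades elastin and other matrix proteins. On the GRCm38 build Mmp12 lies at chr9:7344381-7369499 on the plus strand, the same chromosome as the collagenase gene Mmp13 at chr9:7272514-7283331. C1q, the recognition component of the classical complement pathway, is made in tumors mainly by mature macrophages, whereas monocytes recently arrived from blood carry little of it. Macrophages in poorly perfused tumor regions are known to take up a hypoxia program and to release vessel growth factors and matrix proteases.

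EMT6 cells, a BALB/c mouse mammary carcinoma line used as a model of triple-negative breast cancer, were injected subcutaneously into young immunocompetent female BALB/c mice at 200000 cells per mouse, and each library pooled the tumors of 3 mice. Both groups received LLY-283, an inhibitor of the arginine methyltransferase PRMT5, at 50 mg/kg on 3 days of treatment followed by 4 days without, together with the PARP inhibitor Olaparib at 50 mg/kg daily, and the Combo group was also given antibody to PD-1, 200 µg at intervals of 3 days. No untreated library was analysed here. With 1 library per group no p-value can be given for any difference between treatments, a difference between treatments cannot be told apart from a difference between libraries, and every bracketed range below is a 95% interval for counting error only.

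Mmp12 was unevenly spread over the members. At least 1 Mmp12 UMI was found in 88 of 157 and 51 of 106 members, so a member could pass the selection sum without it. Mmp12 was also found in 3.10% and 9.95% of the tumor-type cells, which should lack it (defined by 3 or more UMIs of Krt8 and Krt18 and under 0.2% myeloid UMIs, with median depths of 10409 and 48073 UMIs against 1719 and 8733 in members). After thinning to 1000 UMIs it was found in 0.394% and 0.350% of a subset of tumor-type cells (507 of 10121 with Olaparib + LLY-283). The share was 52.8% and 32.0% in the 125 and 103 members that could be thinned. Every thinned share below leaves out cells under 1000 UMIs and uses this subset of tumor-type cells. Summed over members and scaled to a total of 1e6 UMIs (CPM, the UMIs of a gene per 1e6 UMIs of its class), Mmp12 stood at 1932 CPM [1786 to 2088] and 1603 CPM [1525 to 1683] with Olaparib + LLY-283 before Combo, the order in which paired values are given throughout. No C1q UMI was found in 107 and 54 members. Of the markers the selection did not use, Fabp5, a fatty-acid carrier, stood at 1084 and 783 CPM against 702 and 248 CPM in C1q-high macrophages, and Slc7a2, an arginine transporter, at 51.2 and 79.4 CPM against 33.1 and 40.2 CPM. Those C1q-high macrophages that also met the selection sum had 1497 and 410.5 CPM of Fabp5 and 58.4 and 119 CPM of Slc7a2, so neither marker stood above this closest class in both libraries.

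The thresholds cut a continuous range. C1q-low cells with 0.1% to 0.2% of UMIs from the selection sum, just outside the rule (62 and 55 cells), had 3696 and 2598 CPM of the lysosomal protease Ctsl, and members just inside it at 0.2% to 0.3% (56 and 41 cells) had 3733 and 3526 CPM. Thbs1 stood at 331 and 331 CPM outside and 384 and 574 CPM inside, while the antigen-presentation gene H2-Ab1 stood at 684 and 124 CPM outside and 268 and 186 CPM inside. The values of Ctsl and Thbs1 were thus higher inside in both libraries, by little for Ctsl in the first, whereas those of H2-Ab1 lay in opposite directions. Inhba stood at 84.1 and 103 CPM outside and 203 and 50.8 CPM inside. At the C1q limit, members with 0.1% to 0.2% C1q (25 and 16 cells) had 19.6 and 56.7 CPM of Inhba and cells that met the selection sum and had 0.2% to 0.3% C1q (27 and 12 cells) had 80.9 and 9.35 CPM, whereas the members without a C1q UMI had 404 and 177 CPM.

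All 10 macrophage markers on the list were detected in both libraries, at a summed 16211 and 20621 CPM, of which Lyz2, a selection gene, made up 12431 and 15773 CPM. The 8 markers the selection did not use summed to 3296 and 4230 CPM in members, led by Cd14, against 3774 and 4333 CPM in C1q-high macrophages, 3988 and 4951 CPM in monocytes, 2741 and 4303 CPM in neutrophils, where Cd14 made up most, and 38.3 and 48.9 CPM in tumor-type cells. The 10 monocyte genes summed to 2832 and 3735 CPM in members and 2094 and 3052 CPM in C1q-high macrophages. In monocytes, which were chosen by Ly6c2 and Ccr2 of this list, they summed to 4817 and 5929 CPM. Fn1 led the list in each of these classes, at 2062 and 2800 CPM in members, and stood at 887 and 814 CPM in tumor-type cells. Among the markers of other cell types, the 10 T and NK cell genes had no UMI in the Olaparib + LLY-283 members, where 3 UMIs would be 9.03 CPM, and 7.94 CPM in Combo. Of the 11 dendritic-cell genes 6 and 3 were detected. Flt3, Xcr1, Clec9a, Ccr7 and Siglech had no UMI in members of either library, and none in the C1q-high macrophages of Olaparib + LLY-283. The whole dendritic-cell list summed to 163 and 110 CPM in members, mostly Cd83, against 127 and 126 CPM in C1q-high macrophages and 152 and 248 CPM in monocytes. The 12 neutrophil genes summed to 1123 and 779 CPM in members against 349 and 435 CPM in C1q-high macrophages and 88783 and 110727 CPM in neutrophils. The fibroblast list, led by Col1a2, summed to 1005 and 389 CPM in members and 2592 and 2871 CPM in tumor-type cells, and the osteoclast list to 488 and 212 CPM.

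When all 21985 cells that passed the filters were clustered with the selection genes left out, most members lay in 1 cluster. This cluster of 1617 cells, with Gatm, Ms4a7, Lyz2 and Msr1 among its leading genes, held 89.2% [83.2 to 93.6] and 96.2% [90.6 to 99.0] of them. Members made up 15.0% of that cluster. At the finer resolution of 2 the members split, with 39.5% and 87.7% in a cluster of 1006 cells and 51.6% and 5.66% in another of 829, so that most members of the 2 libraries then lay in different clusters. In the Olaparib + LLY-283 library 12 members fell in a cluster led by Ccl8 and Fabp5 and 2 in a cluster led by the osteoclast genes Ctsk, Mmp9 and Acp5. A further 2 fell in a cluster with Mgl2, H2-Aa, Ccr7 and Cd209a among its leading genes. At resolution 2, 9 and 1 members lay in a cluster led by MHC class II genes such as H2-Aa and H2-Eb1. The automatic threshold of the doublet caller marked no cell in either library; among the cells with its highest scores, taken up to the expected doublet rate, were 10 (6.37%) and 5 (4.72%) of the members.

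The members were first compared with C1q-high macrophages (540 and 257 cells), defined as myeloid cells with at least 0.2% C1q UMIs and few neutrophil UMIs. Against this mixed class Mmp13, Inhba, Thbs1, hypoxia-induced genes and PD-L1 stood higher in members, and Gas6, Ednrb, Lyve1, Selenop and Mrc1 stood lower. Most of these differences were smaller against the C1q-high macrophages that also met the selection sum, as given below. Of 4591 genes tested, each with 50 or more UMIs over the 2 classes in each library, 31 (0.675%) were more than 2-fold higher in members in both libraries and 77 (1.68%) more than 2-fold lower. The medians over all of them were -0.07 and -0.11 on the log2 scale.

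Of the fixed lists of secreted factors, the proteases and inhibitors had 2 of 13 tested genes past 2-fold higher (Mmp9 and Mmp13), with 8 above 0 and 4 below 0 in both libraries and medians of 0.26 and 0.42 log2. Mmp9 rested on few cells, since 5 members held 92.8% and 79.7% of its UMIs and 58 of its 69 UMIs in the Olaparib + LLY-283 members lay in 6 cells with 2 or more UMIs of the osteoclast genes Ctsk and Acp5. The growth and angiogenic factors had 3 of 16 (Vegfa, Thbs1 and Inhba), with 7 above and 5 below 0 and medians of 0.15 and 0.09. Mmp13, the collagenase that degrades fibrillar collagen, stood at 184 CPM [140.4 to 236] and 178 CPM [153 to 206] in members and at 30.3 and 11.9 CPM in C1q-high macrophages, a difference of 6.06-fold [4.04 to 9.17] and 15.0-fold [10.5 to 21.8]. It was rare and concentrated, since 22 and 27 members had a UMI and 5 members held 50.8% and 60.9% of the UMIs. Inhba, which encodes the activin A subunit, stood at 265 CPM [212 to 326] and 115 CPM [95.2 to 138] in members against 38.7 and 13.1 CPM, or 6.84-fold [4.83 to 9.76] and 8.80-fold [6.15 to 12.8], with 61.4% and 69.0% of its UMIs in 5 members. Its smaller log2 ratio, 2.77, was 2.26 without the members that had 2 or more UMIs of Ctsk and Acp5. In tumor-type cells Inhba stood at 148 and 116 CPM, below the members' interval with Olaparib + LLY-283 and within it in Combo. After thinning to 1000 UMIs an Inhba UMI was found in 12.8% and 7.77% of members and in 14.8% and 11.0% of tumor-type cells, so the members' share was not above that of tumor-type cells, and what part RNA from them had in the members' value was not tested. Thbs1, the matrix protein thrombospondin 1, which restrains vessel growth and activates TGF-beta, was higher in members by 4.66-fold [3.72 to 5.82] and 6.70-fold [5.90 to 7.62], at 512 and 734 CPM, and was found in 72 and 81 of them. Tumor-type cells had 245 and 213 CPM of Thbs1. After thinning to 1000 UMIs it was found in 30.4% and 41.7% of members and in 22.3% and 21.5% of tumor-type cells, and the part of tumor RNA in the members' level was not tested. Inhba stood at 73.9 and 62.5 CPM in monocytes, from which members differed by 3.58-fold [2.16 to 6.23] and 1.84-fold [1.38 to 2.48], and at 145 and 113 CPM in neutrophils, or 1.83-fold [1.29 to 2.62] and 1.022-fold [0.815 to 1.27]. It was thus not past 2-fold over monocytes in Combo and was at the neutrophil level there, with a UMI in 7.58% of thinned Combo neutrophils. Outside the members Mmp13 was low also in monocytes (7.78 and 6.86 CPM), neutrophils (8.20 and 5.41 CPM) and tumor-type cells (6.25 and 2.87 CPM), whereas Thbs1 stood at 521 and 726 CPM in monocytes, close to its level in members.

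Cell-surface molecules followed. Tnfrsf9 (4-1BB, a costimulatory receptor) stood at 105 and 107 CPM against 16.2 and 34.4, Il7r, the interleukin 7 receptor chain, at 289 and 261 CPM against 83.8 and 86.4, and the heparan sulfate proteoglycan Sdc1 at 114 and 120.1 CPM against 24.7 and 29.8. Cd274, the PD-1 ligand PD-L1, was 2.04-fold [1.28 to 3.17] and 2.63-fold [1.97 to 3.49] higher, at 93.3 and 90.4 CPM. All 4 were past 2-fold in both libraries. Against the C1q-high macrophages that also met the selection sum, the smaller log2 ratio was 0.28 for Tnfrsf9 and 0.78 for Il7r, both under 2-fold. Gpnmb, a lysosomal and surface glycoprotein of lipid-laden macrophages, stood at 93.3 and 59.6 CPM against 13.4 and 13.1, but only 10 and 14 members had a UMI of it, and its smaller log2 ratio was 1.46 without the members that had 2 or more UMIs of the osteoclast genes Ctsk and Acp5. Against the C1q-high macrophages that also met the selection sum, the smaller log2 ratio of Gpnmb was 0.47. Spp1, osteopontin, an abundant secreted product of tumor macrophages, was 1.05-fold [1.00 to 1.10] and 0.883-fold [0.859 to 0.908] the C1q-high level, so it did not set the members apart. Cxcl3, a neutrophil-attracting chemokine, differed by 10.4-fold and 2.81-fold, with 59.9% and 72.5% of UMIs in 5 members. Neutrophils, of which 57.5% and 57.6% had a Cxcl3 UMI, stood at 4394 and 4522 CPM, and the neutrophil list was higher in members than in C1q-high macrophages as given above, the part of which in the Cxcl3 difference was not tested.

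**Figure D1:**
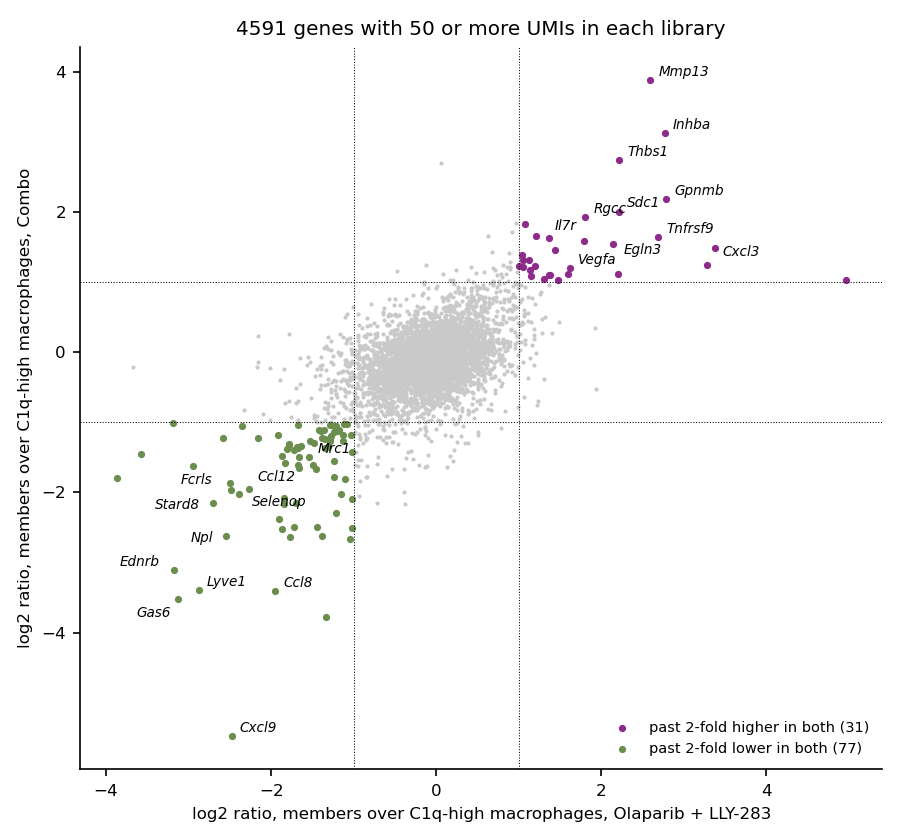
Each point is 1 of the 4591 genes, with the log2 ratio of members over C1q-high macrophages in the Olaparib + LLY-283 library on the horizontal axis and in Combo on the vertical axis. Inhba, Mmp13 and Thbs1 lie at the upper right and Gas6, Ednrb and Lyve1 at the lower left, past 2-fold in both libraries.

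The hypoxia list stood above the background. Genes on it are targets of the hypoxia-inducible factors, which bind DNA when oxygen falls. Of 28 listed genes 24 were tested, 23 were above 0 in both libraries and none was below 0 in both, with medians of 0.80 and 0.84 log2. Past 2-fold in both were 7, where 0.675% of all genes were, namely Vegfa, Ero1l, Egln3, Hilpda, Mxi1, Slc2a1 and Ddit4. Vegfa, the main vessel growth factor, stood at 199 CPM [154 to 253] and 199.6 CPM [173 to 229] against 64.8 and 87.0 CPM, or 3.06-fold [2.20 to 4.25] and 2.29-fold [1.91 to 2.76]. The glucose transporter Slc2a1 stood at 469.5 and 517 CPM against 228 and 208, and Egln3, a prolyl hydroxylase that marks the hypoxia-inducible factors for destruction, at 99.3 and 86.4 CPM against 22.5 and 29.5. Hilpda, which inhibits breakdown of lipid droplets, stood at 746 and 729.8 CPM against 324 and 232. Of the glycolysis list, 15 of 16 tested genes were above 0 in both libraries with medians of 0.44 and 0.64 log2, but only Slc2a1 passed 2-fold. Ldha, lactate dehydrogenase A, stood at 2272 and 2277 CPM against 1512 and 1317.

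The core letters of the hypoxia response element, ACGTG, were searched on both strands of RefSeq promoters of the GRCm38.p6 build, 250 bases before to 50 after each gene's start. They were in at least 1 promoter of 20 of the 24 listed hypoxia genes that matched the table (83.3%) and of 21.8% of all 27025 genes. The E-box CACGTG, which contains them, was in 12.5% and 8.09%. The list is of hypoxia-inducible factor targets, counted whether or not they were higher in members, so its shares do not describe the members. TGACTCA, the letters of the AP-1 site, were in 3 of the 9 matched genes of the 10 with the largest excess over C1q-high macrophages and in 5.95% of all genes. ACGTG was in 2 of those 9 (22.2%), near its share of all genes. A match is a description of the letters and not a shown binding site. The 250 bases before the start are printed for 2 genes of the hypoxia list past 2-fold over C1q-high macrophages (Slc2a1 and Egln3), for Bnip3, a mitochondrial protein past 2-fold over monocytes, and for Mmp13. The windows are chr4:119108495-119108744 on the plus strand, chr12:54203875-54204124 on the minus strand, chr7:138909507-138909756 on the minus strand and chr9:7272264-7272513 on the plus strand, each written 5′ to 3′ in the direction of its gene, with ACGTG in capitals in the first pair, CACGTG in Bnip3 and TGACTCA in Mmp13.
Slc2a1: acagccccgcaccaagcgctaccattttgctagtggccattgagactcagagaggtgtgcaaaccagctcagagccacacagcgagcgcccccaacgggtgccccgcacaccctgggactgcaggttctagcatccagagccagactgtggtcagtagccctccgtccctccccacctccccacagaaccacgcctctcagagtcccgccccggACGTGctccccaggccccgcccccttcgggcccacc
Egln3: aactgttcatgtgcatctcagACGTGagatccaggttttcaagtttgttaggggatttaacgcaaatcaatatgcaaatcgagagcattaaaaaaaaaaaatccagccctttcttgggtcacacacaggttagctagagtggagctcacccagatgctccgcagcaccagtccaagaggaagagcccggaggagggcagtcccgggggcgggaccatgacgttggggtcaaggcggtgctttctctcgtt
Bnip3: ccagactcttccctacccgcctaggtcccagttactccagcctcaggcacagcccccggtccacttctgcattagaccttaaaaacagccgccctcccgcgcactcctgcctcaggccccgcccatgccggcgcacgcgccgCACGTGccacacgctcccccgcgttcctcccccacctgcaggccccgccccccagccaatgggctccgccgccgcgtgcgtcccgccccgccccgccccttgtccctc
Mmp13: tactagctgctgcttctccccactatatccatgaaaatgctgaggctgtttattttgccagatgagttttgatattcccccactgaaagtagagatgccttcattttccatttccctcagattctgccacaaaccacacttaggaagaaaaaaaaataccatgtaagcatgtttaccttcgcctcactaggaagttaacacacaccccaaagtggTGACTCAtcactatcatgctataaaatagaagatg
The capitals begin 36 bases before the start in Slc2a1, 229 in Egln3, 108 in Bnip3 and 35 in Mmp13.

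Among the 10 genes furthest below the C1q-high level were Gas6, Ednrb, Lyve1 and Selenop, which were not tested as a group. Gas6, the ligand of the receptors that clear dying cells, stood at 15.0 and 11.9 CPM in members against 144 and 142 in C1q-high macrophages, 9.55-fold and 11.9-fold lower. The hyaluronan receptor Lyve1 stood at 24.1 and 38.7 CPM against 187 and 410.5, the endothelin receptor Ednrb at 15.0 and 22.8 against 149 and 201, and the selenium carrier Selenop at 169 and 174 against 889 and 704. The mannose receptor Mrc1 was 2.93-fold and 2.81-fold lower and Csf1r, the growth-factor receptor on which macrophages depend, 2.20-fold and 2.27-fold lower. Mrc1, Cd163, Folr2 and Ccl8 were the 4 genes past 2-fold lower among 11 tested of the alternative-activation list, where 1.68% of all genes were. The medians of that list were -0.98 and -0.94 log2. Of those 11 genes 1 was above 0 in both libraries. The smaller log2 ratio of Ccl8, -1.96, was -0.91 with the selection sum at 0.4% or more and -3.28 without the members that had 2 or more UMIs of Ctsk and Acp5.

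Most tested genes of dividing cells lay below 0 in the members against all C1q-high macrophages, and few passed 2-fold lower, which 1.68% of all genes did. All 10 tested genes of the G2 and M list were below 0 in both libraries, with medians of -0.71 and -1.40 log2, and 3 passed 2-fold (Ccnb2, Cenpf and Tpx2). Of 9 tested S phase genes 6 were below 0 and 2 above 0 in both libraries, with medians of -0.51 and -1.22, and 2 passed 2-fold lower, Mcm5 and Mcm6. Against the C1q-high macrophages that also met the selection sum, 2 S phase genes were tested, with medians of 0.36 and 0.18 log2. The 1 tested G2 and M gene stood at 0.59 and -0.02 log2, and no gene of either list passed 2-fold. In cells thinned to 1000 UMIs, Mki67 was found in 4.8% and 3.88% of members and in 5.58% and 6% of C1q-high macrophages. Top2a was found in 6.4% and 2.91% against 6.44% and 4.8%. Among 9 tested interferon-gamma-induced genes, Iigp1, Cxcl9 and Cxcl10 were past 2-fold lower and Cd274 past 2-fold higher. Cxcl9, a chemokine that attracts T cells, had only 2 and 1 UMIs in members, a ratio of 0.145 [0.0171 to 0.547] and 0.0150 [0.000377 to 0.0843] to its C1q-high level. Depth also differed, with medians of 1719 and 8733 UMIs in members and 2317.5 and 12454 UMIs in C1q-high macrophages; with every cell thinned to 1000 UMIs, the higher genes numbered 43 and the lower ones 100, and Egln3 fell under 2-fold, at 0.88 log2 in the library where it was smaller.

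The C1q-high macrophages that also met the selection sum (137 and 63 cells, median depths of 2491 and 12291 UMIs) were the class closest to the members, and this comparison was chosen after the values were seen. Of 2001 genes tested against them, 4 (0.2%) were past 2-fold higher in members in both libraries, Thbs1, Errfi1, Mmp13 and Inhba, and 4 (0.2%) past 2-fold lower, Mrc1, Ccl12, Ccl8 and Ch25h, around medians of 0.01 and -0.00 log2. Of the 31 genes higher against all C1q-high macrophages 23 were tested here and 4 of them passed 2-fold, and of the 77 lower ones 17 were tested and 4 passed. Inhba stood at 45.1 and 13.3 CPM in this class, 5.87-fold [3.47 to 10.5] and 8.64-fold [4.54 to 18.5] below members. Mmp13 stood at 87.6 and 48.0 CPM, a difference of 2.10-fold [1.35 to 3.31] and 3.70-fold [2.58 to 5.46], and Thbs1 at 194 and 239.9 CPM, or 2.64-fold [2.00 to 3.52] and 3.06-fold [2.60 to 3.62]. These 3 genes thus stood higher in members than in either C1q-high class by more than the counting error, which leaves out the spread between cells. Of their UMIs in members, 5 cells held 61.4% and 69.0% for Inhba and 50.8% and 60.9% for Mmp13. For Thbs1 they held 27.1% and 31.5%.

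The hypoxia difference was small in this comparison. Of 18 tested hypoxia genes 13 were above 0 and 3 below 0 in both libraries, none passed 2-fold, and the medians were 0.19 and 0.20 log2. Vegfa stood at 119 and 205 CPM, so that members had 1.66-fold [1.12 to 2.49] and 0.973-fold [0.784 to 1.21] its level. Hilpda stood at 714 and 638 CPM and Slc2a1 at 422 and 461 CPM, near the members' 746 and 729.8 and 469.5 and 517 CPM. The median of 15 tested glycolysis genes was 0.02 and 0.17 log2. Cd274 stood at 58.4 and 84.0 CPM, and its ratio of 1.60-fold [0.896 to 2.90] and 1.08-fold [0.772 to 1.51] was within the counting error. Mrc1 was 0.386-fold [0.303 to 0.488] and 0.497-fold [0.436 to 0.567] and Gas6 0.196-fold [0.0591 to 0.511] and 0.199-fold [0.0957 to 0.382] the level of this class, lower in both libraries, although Gas6 had too few UMIs over the 2 classes to be among the 2001 genes tested. Ednrb and Selenop were less far apart here, with smaller log2 ratios of -0.36 and -0.59. Lyve1 and Cxcl3 lay in opposite directions in the 2 libraries, Lyve1 at -2.11 and 0.67 log2 and Cxcl3 at 2.36 and -0.18.

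Against monocytes (104 and 150 C1q-low cells with at least 2 UMIs and 0.05% of UMIs from Ly6c2 and Ccr2) the members had higher levels of hypoxia, heme, lipid and protease genes and lower levels of MHC class II. Of 1746 genes tested, 43 (2.46%) were past 2-fold higher and 22 (1.26%) past 2-fold lower in both libraries, around all-gene medians of -0.10 and -0.13 log2. Monocyte depth, 2374.5 and 8475.5 UMIs at the median, was near that of members in Combo. With Olaparib + LLY-283, 99 of the 104 monocytes had a UMI of Ccr2 and 20 a UMI of Ly6c2, so the class was set mostly by Ccr2 there.

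The heme-degrading enzyme Hmox1 stood at 1445 and 1169 CPM in members against 381 and 188 in monocytes, or 3.79-fold [3.04 to 4.76] and 6.21-fold [5.41 to 7.15]. Ndrg1, a hypoxia-induced gene, stood at 587 and 721 CPM against 144 and 153, or 4.08-fold [2.86 to 5.96] and 4.70-fold [4.02 to 5.53]. Both were higher by more than the counting error in each library. Ctsl stood at 5376 and 6135 CPM against 1821 and 1616, and the myelin and membrane protein Pmp22 at 235 and 240.3 CPM against 62.3 and 27.4. Mmp13 had 2 and 9 UMIs in all monocytes, which gives 23.6-fold [6.26 to 199] and 25.9-fold [13.3 to 57.6]. On the hypoxia list 8 of 15 tested genes were past 2-fold higher, with medians of 1.01 and 1.29 log2. On the lipid-handling list 5 of 10 were, Fabp5, Plin2, Abca1, Soat1 and Hilpda, with medians of 0.98 and 1.03, and on the iron, heme and NRF2 list 4 of 12 were, Hmox1, the ferritin gene Fth1 and the metallothioneins Mt1 and Mt2, with medians of 0.76 and 0.86. Against C1q-high macrophages 1 of 16 tested genes passed on the lipid list, with medians of 0.34 and 0.43. On the iron list 1 of 16 passed, with medians of 0.03 and 0.50. Against those that also met the selection sum, 0 of 14 passed on either list. The medians there were -0.10 and 0.37 for lipid and -0.24 and 0.17 for iron.

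MHC class II presents peptides to CD4+ T cells, and 5 of 7 tested genes of that list were past 2-fold lower in members, with medians of -1.62 and -2.25 log2. H2-Eb1 stood at 108 and 39.7 CPM against 755 and 524 in monocytes, 6.97-fold and 13.2-fold lower. H2-Aa stood at 241 and 91.4 CPM against 1444 and 831, and the invariant chain Cd74 at 1174 and 589 CPM against 3607 and 2811. These 3 levels were lower in members of both libraries. The share of cells with a UMI of H2-Ab1 was 21.02% and 46.2% in members and 36.5% and 38.7% in monocytes, so it was the higher one in the Combo members. Thinned to 1000 UMIs, the shares were 15.2% and 10.7% against 31.6% and 24.2%, and 0.394% and 0.524% in tumor-type cells. The dendritic-cell list summed to 152 and 248 CPM in monocytes, with 6 and 10 of its 11 genes detected, against 163 and 110 CPM in members with 6 and 3, and the B cell list to 7.78 and 40.4 CPM against 6.02 CPM and no UMI in Combo members, where 3 UMIs would be 2.98 CPM. The T and NK list summed to 31.1 and 209 CPM in monocytes against no UMI and 7.94 CPM in members. The part of such cells in the monocyte values was not tested. Against C1q-high macrophages 0 of the same 7 genes passed 2-fold in both, with medians of -0.21 and -0.84 log2. The monocyte genes Vcan, Plac8 and Ms4a4c were also past 2-fold lower, Plac8 by 3.31-fold and 5.53-fold.

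**Figure D2:**
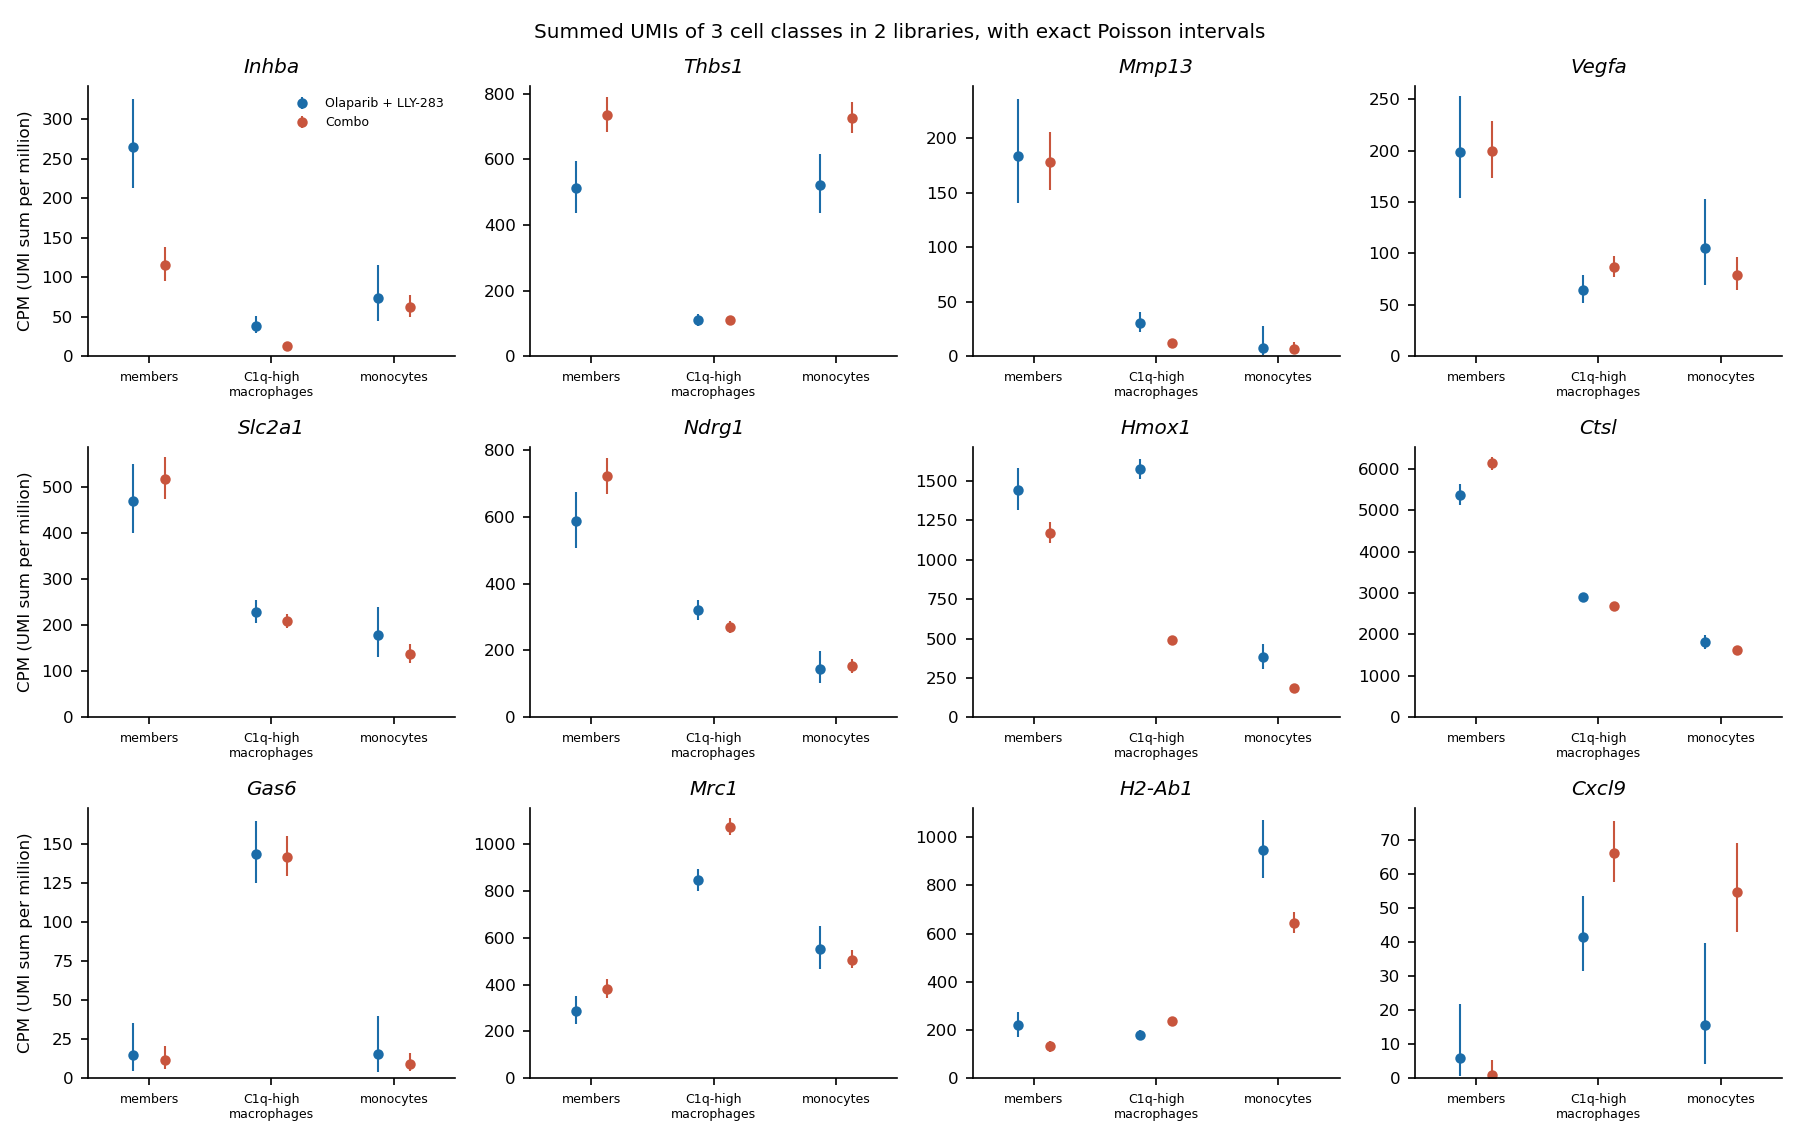
CPM of 12 genes in members, C1q-high macrophages and monocytes, with 95% counting intervals and 1 color per library, on linear axes that start at 0. Of these 3 classes, members are highest in Inhba, Mmp13 and Vegfa in both libraries, Mrc1 is lowest in members, Gas6 is low in members and monocytes and H2-Ab1 is highest in monocytes.

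**Figure D3:**
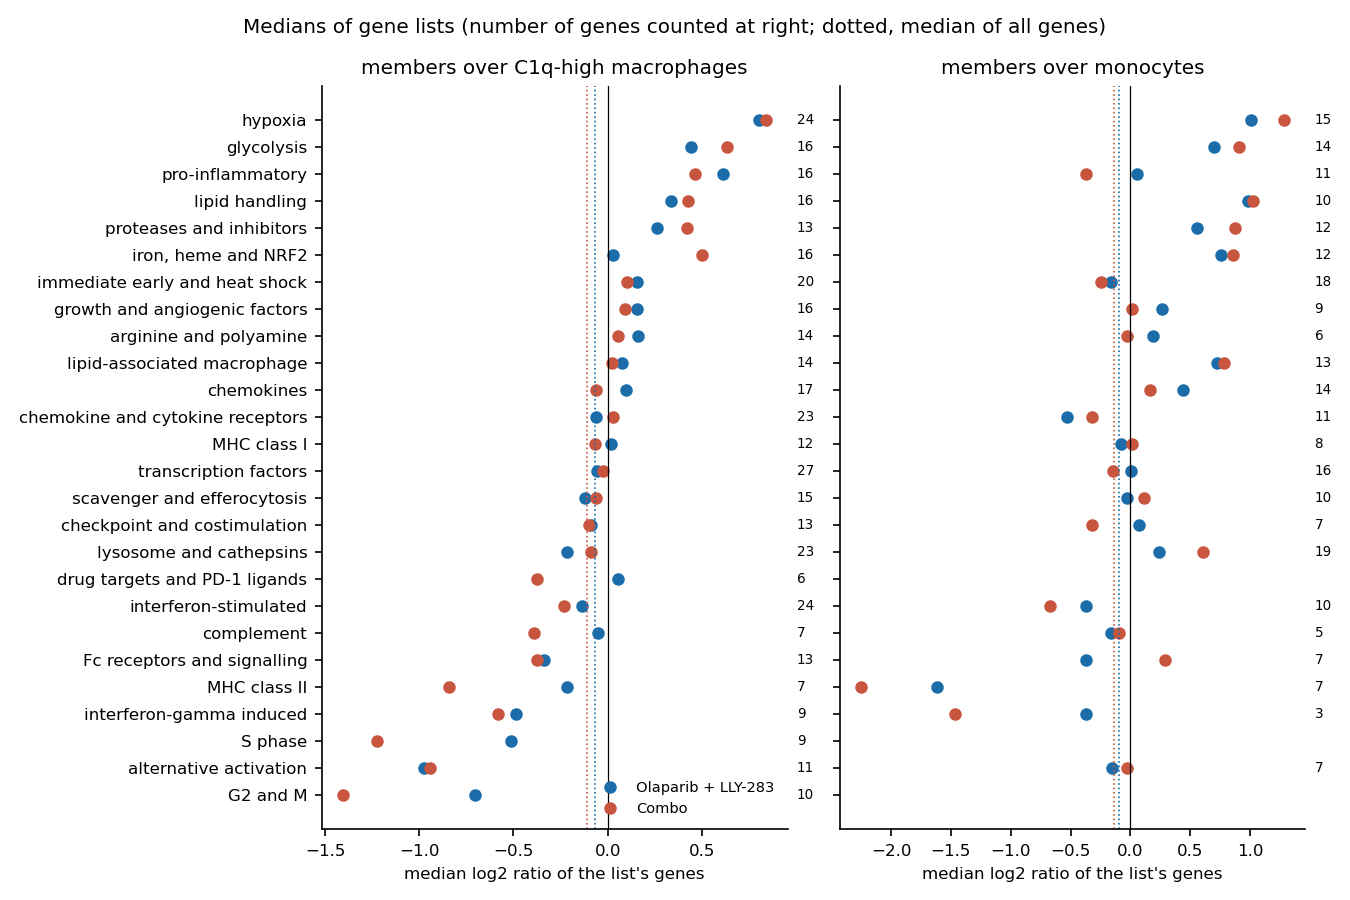
Median log2 ratio of each gene list, members over C1q-high macrophages and members over monocytes, 1 color per library, with the medians of all genes tested as dotted lines and the number of genes counted at the right of each row. Hypoxia and glycolysis lie above the lines in both comparisons, alternative activation lies below them against C1q-high macrophages and MHC class II below them against monocytes.

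Between the libraries, the members were 9.38% [8.02 to 10.9] of myeloid cells in Olaparib + LLY-283 and 5.39% [4.44 to 6.49] in Combo, but 0.979% and 1.78% of all cells that passed. The myeloid share of the 2 libraries differed, 10.4% and 33.0%, and neutrophils were 27.2% and 56.8% of myeloid cells, so the direction depended on the denominator. Fewer members and more of other myeloid cells cannot be told apart from these shares.

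Of 1927 genes tested, each with 100 or more UMIs over the members of both, 13 (0.675%) were past 2-fold higher in Combo and 27 (1.40%) past 2-fold lower, around a median of 0.02 log2. With members thinned to 1000 UMIs, given their median depths of 1719 and 8733, the counts were 98 and 77. None of the 19 tested hypoxia genes passed 2-fold, and their median was 0.03. Mef2c, a transcription factor of myeloid cells, stood at 39.1 and 110.2 CPM, 2.82-fold [1.58 to 5.46] higher in Combo, and Irf8, a transcription factor of the monocyte and dendritic lineage, at 105 and 224 CPM, 2.13-fold [1.49 to 3.13] higher. Irf8 was under 2-fold in 7 of the alternatives, at 0.50 to 0.94 log2. Ccl24, an eosinophil-attracting chemokine, stood at 51.2 and 195 CPM in the members, 3.80-fold [2.32 to 6.66] higher in Combo, and its ratio of Combo over Olaparib + LLY-283 in C1q-high macrophages was 0.596-fold, but 5 members held 84.2% of the UMIs in Combo and the log2 ratio was 0.97 with the selection sum at 0.1% or more.

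Several of the lower genes rested on few cells. Ctsk, the collagen-degrading protease of osteoclasts, stood at 316 and 40.7 CPM, 7.76-fold lower in Combo, but 102 of its 105 UMIs in the Olaparib + LLY-283 members lay in 6 cells with 2 or more UMIs of Ctsk and Acp5 together. Without those 6 cells and the 9 such cells of Combo, the log2 ratio went from -2.95 to 0.08, that of Mmp9 from -1.71 to 0.91 and that of Ccl8 from -2.30 to -0.71. The osteoclast list summed to 488 and 212 CPM in members, with Calcr, Ocstamp and Oscar at 0 in both. Ccl8, a monocyte-attracting chemokine, stood at 515 and 104 CPM, and 111 of its 171 UMIs in Olaparib + LLY-283 came from 1 cell. The other lower genes included tumor and stroma genes. Col1a2, a collagen chain, stood at 569 and 205 CPM in members and 449 and 176 CPM in C1q-high macrophages (a log2 ratio in members of -1.48, which was -0.82 without the highest doublet scores, -0.85 with the selection sum at 0.4% or more and -0.84 by the mean over cells), and Wfdc2, abundant in tumor-type cells (921 and 834 CPM), at 268 and 79.4 CPM in members and 204 and 101 CPM in C1q-high macrophages. The fibroblast list summed to 1005 and 389 CPM in members and 1081 and 362 CPM in C1q-high macrophages, and the tumor list, led by Krt8, to 238 and 103 CPM in members, with Krt7, Krt19 and Krt14 at 0 and Krt8 and Krt18 limited by the selection. The part of RNA from other cells in these differences was not tested.

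**Figure D4:**
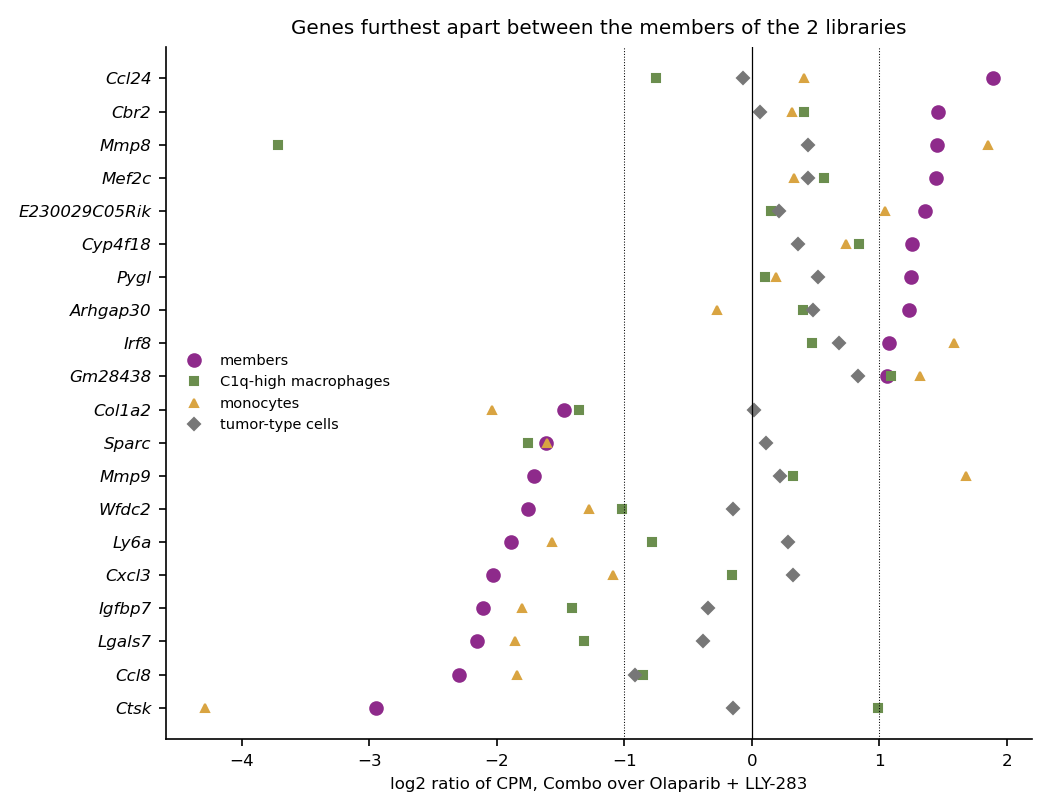
Log2 ratio of Combo over Olaparib + LLY-283 for the 10 genes furthest apart in each direction, in members, C1q-high macrophages, monocytes and tumor-type cells. The dotted lines mark 2-fold, Ctsk, Ccl8 and Lgals7 lie furthest below 0 in members, and Col1a2, Sparc and Wfdc2 lie below 0 in both members and C1q-high macrophages.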

How the data were processed

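The authors deposited filtered 10x UMI counts per gene and cell for 2 libraries, made with Cell Ranger (6.1.2 in the matrix header) on mm10; the submitters' notes also name bcl2fastq 5.0.1 and Seurat 4.1.0. The libraries hold 147214934 (Olaparib + LLY-283) and 162522700 (Combo) UMIs. No cell annotation was used. Cells were filtered and gated on UMI shares, UMIs were summed per class and library and scaled to a sum of 1e6 (CPM), and log2 ratios were taken with 0.5 UMIs added, each library its own contrast, with exact Poisson, Clopper-Pearson and conditional binomial intervals. The members, gene lists and comparisons were chosen with earlier results of these data known. Genes named were the 10 with the largest ratio in each direction, ranked by the smaller of the 2 libraries, plus selection genes, markers and leading genes of the 41 lists; Csf1r was chosen after its values were seen. Clustering used scanpy 1.11.5 and leidenalg 0.10.2 (2000 variable genes, 30 components, 20 neighbors, resolution 1.3), other steps Python 3.11.15, numpy 2.4.6, scipy 1.17.1 and pandas 2.3.3. The contrasts were tested on simulated data. The libraries share 39 cell barcodes, none among members. Doublets were scored with Scrublet and kept. Alternatives covered gates, filters, scaling, thinning to 1000 UMIs and resolution. Some genes, one of them used in the selection, and the comparisons that need them are not reported here.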

Additional observations from a re-analysis of the deposited data

How the results depend on the processing

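With 1 library per group no leave-one-out fit or test exists. No paired analysis was possible because each group has 1 library. Of 108 values of the main comparisons under alternatives 69 kept their size and 39 moved, and of 740 values of named genes 613 kept their size, 121 moved and 6 changed direction; the cause was not tested. The member share of myeloid cells in Olaparib + LLY-283 (9.38%) was 11.9% with 500 genes per cell, 3.94% and 13.1% with the selection sum at 0.4% and 0.1%, and 7.89% and 13.1% with C1q under 0.1% and 0.5%; that in Combo (5.39%) was 2.44% and 8.19% at 0.4% and 0.1% and 6.72% with C1q under 0.5%. Genes higher than in C1q-high macrophages (31) numbered 56 and 19 at 0.4% and 0.1%, 61 with a minimum of 20 UMIs and 412 with none; those lower (77) numbered 136 at 0.4%, 137 with 20 UMIs, 375 with none and 36 with 5 UMIs added. Against the C1q-high macrophages that also met the selection sum, where fewer genes were tested, both numbered 4, and the log2 ratio in the library that changed direction was -0.18 for Cxcl3, 0.67 for Lyve1 and 2.503 for Cxcl9, which had no UMI in that class there. Against monocytes the higher genes (43) numbered 74 with 20 UMIs and 481 with none, and the lower (22) 41 at 0.4%, 71 with 20 UMIs and 733 with none. Between libraries the higher genes (13) numbered 24 at 0.1%, 23 and 24 with C1q under 0.1% and 0.5%, 25 by the mean over cells, 98 after thinning, 301 with 20 UMIs, 1293 with none and 4 with 5 UMIs added; the lower (27) numbered 8 and 51 at 0.4% and 0.1%, 77 after thinning, 277 with 20 UMIs and 2351 with none. The omissions by osteoclast genes and by Scrublet score and that comparison class were chosen after seeing the data. The share in the cluster with most members of both libraries (89.2% and 96.2%) was 98.7% in Olaparib + LLY-283 at resolution 0.6 and 39.5% and 87.7% at resolution 2. Without the members with osteoclast genes the Combo over Olaparib + LLY-283 log2 ratio became -0.0063 for Mmp8, 0.080 for Ctsk and 0.91 for Mmp9. Depth limits the genes with few UMIs: 32 and 3 members had under 1000 UMIs.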
